A study of Sus scrofa with 20 samples.

Results

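The genes described here are those for voltage-gated calcium channels, voltage-gated sodium channels and potassium channels of every class, with their accessory subunits, in epicardial adipose tissue of the Ossabaw pig. They were taken by name: every row whose name begins with KCN or CACN, or with SCN and a digit, in the table of unique exon reads of each library, joined with names of the same pattern that stand only in the second table of each library. The rule gave 127 names, of which 114 were among the 22861 rows of the first table while 13 stood only among the 10157 rows of the second. Among the names only in the second table were CACNA1A, CACNA1B, KCNA5, KCNAB2, KCNE3, KCNJ10, KCNJ12, KCNJ2, KCNMB4, KCNQ1, KCNQ1-AS1 and SCN2A. The spelling CACNLB1 in the first table is the reference symbol CACNB1, a calcium channel beta subunit. The row named CACNB3 carries another symbol, DDX23, in the reference list, so whether its reads are of the channel gene is uncertain.

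An ion channel of these families is built around a pore-forming alpha subunit that opens with voltage, calcium, nucleotides or G proteins. Beta, alpha2delta, gamma, KCNE and KCNIP subunits sit beside the pore and set its trafficking and gating. In and around the heart the same families serve several cell types: autonomic neurons of the cardiac ganglia and nerve fibres fire and release transmitter through them, cardiac myocytes shape their action potential with them, and vascular smooth muscle sets its tone through them. Epicardial fat lies directly on the myocardium and carries such ganglia, nerves and vessels. TUBB3, the neuronal tubulin, and ACTN2, the alpha-actinin of the sarcomere of striated muscle, were used as the markers against which each channel gene was read.

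The tissue came from Ossabaw miniature pigs, a breed that becomes obese on rich food, and was profiled by RNA sequencing in 20 libraries. The WD+S group (8 libraries) carries the diet label atherogenic plus statin, taken to mean the Western diet (saturated fat, cholesterol, refined grain) named in the design together with atorvastatin, which blocks cholesterol synthesis. The HHD+S group (6 libraries) received atorvastatin with the Heart Healthy diet (unrefined grain, fruit, vegetables and unsaturated fat), and the HHD group (6 libraries) that diet alone. The Western diet without atorvastatin was not analysed here, so an interaction of diet with statin could not be tested, and the ages, sexes and litters of single animals are not in the labels used here. WD+S against HHD+S compares the diets under the drug, HHD+S against HHD the drug on the Heart Healthy diet, and WD+S against HHD both at once.

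Library totals ran from 2749337 to 6543337 counts in the first table. Fat cell genes were present in every library: 7 of 12 listed fat cell markers were found, with a summed level of 1579 to 4559 CPM (counts scaled to a library of fixed size, with TMM factors). TUBB3 stood at 232 to 792 CPM (median 614) in WD+S, 180.0 to 551 CPM (median 283) in HHD+S and 159.7 to 389.8 CPM (median 293) in HHD, with 5 of 8 WD+S libraries above every HHD+S library and 7 of 8 above every HHD library, so that the groups overlapped. ACTN2 stood at 39.7 to 429.6 CPM (median 73.8) in WD+S, 15.5 to 90.1 CPM (median 43.6) in HHD+S and 16.2 to 81.9 CPM (median 53.9) in HHD, with WD+S replicate 5 far above the rest. File names carry a pool number whose meaning is not stated: pool 1 holds 4 libraries of each group, and pool 2 holds 4 WD+S, 2 HHD+S and 2 HHD libraries. They also carry a code whose meaning is not stated, and the 3 libraries of code C4 (HHD replicate 2 and HHD+S replicates 3 and 6) are the only ones with the letter B and include no WD+S library. HHD replicates 3 and 5 carried reads both of XIST and of Y-linked genes, and of the other libraries 4 of 8 WD+S, 2 of 6 HHD+S and 1 of 4 HHD carried mainly the Y-linked ones. Some results are therefore also given without these 2 libraries, and the part of sex in the group differences was not tested. Labels do not say whether libraries of a group came from separate animals, so p-values measure the spread between these libraries.

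Of the 127 names, 56 had enough reads to be tested (44 from the first table and 12 from the second). These 56 rows stand for 53 genes, since CACNA1A, KCNAB2 and SCN2A each have a tested row in both tables. Each row is counted as a gene below unless gene names are given. The expression filter was passed by 38.6% of the first-table channel names, against 49.7% of all rows. A median of at least 1 CPM was reached by 65 names and a read in every library by 61, while 7 names had no read in any library (KCNA1, KCNAB2_1, KCNG3, KCNG4_2, KCNJ1, KCNK15 and KCNK18) and another 29 had at most 20 reads over all libraries. Among the accessory subunits all 3 calcium channel beta names, with the uncertain CACNB3 row, and all 3 sodium channel beta subunits passed. So did 3 of 4 alpha2delta, 3 of 4 KCNIP and 3 of 5 cytoplasmic potassium channel beta names. Pore genes passed in 7 of 11 voltage-gated calcium channel names, 4 of 12 sodium channel names, 9 of 33 voltage-gated potassium channel names, 7 of 14 inward rectifiers, 4 of 8 calcium- or sodium-activated potassium channels and 4 of 12 tandem-pore channels. Of the gamma subunits 2 of 8 passed (CACNG4 and CACNG7), of the KCNE subunits 2 of 5 (KCNE1 and KCNE3), and of the beta subunits of the large-conductance calcium-activated channel 2 of 4 (KCNMB1 and KCNMB4). The antisense RNA KCNQ1-AS1 did not pass.

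The choice of table decided detection for several pore genes. Unique exon reads were taken from the first table and unique gene reads from the second, so the counts are not the same measure. Of 17 names in both tables, 5 passed only in the second, among them CACNA1C, the L-type pore of heart and smooth muscle, KCNJ4, an inward rectifier, KCNA3, a channel of lymphocytes, and SCN8A, a sodium pore of axons. CACNA1C had a median of 4.5 reads by the first table but of 125 by the second, with a total 21.7 times as high. Copy-numbered names are uncertain, because their reads may be split between rows: there were 13 of them in the first table, and CACNA1A, KCNAB2 and SCN2A stood in the second table under a plain name as well. A further 7 first-table rows carry only an identifier that the reference list pairs with a channel symbol and so fall outside the rule, with KCNAB1 (3101 reads over all libraries) and KCNC4 (1058 reads) the most abundant. Their values are not part of the counts below.

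Levels can be compared between genes only per length, and the second table gives the authors' RPKM for 30 of the names. By median RPKM over the 20 libraries the leading channel gene was KCNMB1, the beta subunit of the large-conductance potassium channel in smooth muscle, at 20.3 (range 7.32 to 38.1). Close to it were KCNMB4, the neural and glial form of that subunit, at 19.6, KCNJ8, the pore of the vascular ATP-sensitive channel, at 19.4, and KCNA5, a delayed rectifier of atrial and smooth muscle, at 18.4. The ranges of these 4 over libraries overlapped, so their order is not settled. KCNAB2, the cytoplasmic beta subunit of Shaker-type channels, followed at 13.7, and KCNE1, the small subunit that slows KCNQ1, at 9.44. Lower still were SCN2B, a sodium channel beta subunit, at 6.46, KCNJ11, the other ATP-sensitive pore, at 6.35, and KCNJ10, the inward rectifier of glia, at 5.96. KCNMB1 stood at percentile 73.3 of all names in that table. CACNA1S, the L-type pore of skeletal muscle, was low, at 0.0386. RPKM here includes reads beyond the unique ones, since it was above 0 for 1209 of the 49819 values with 0 unique gene reads.

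**Figure D1:**
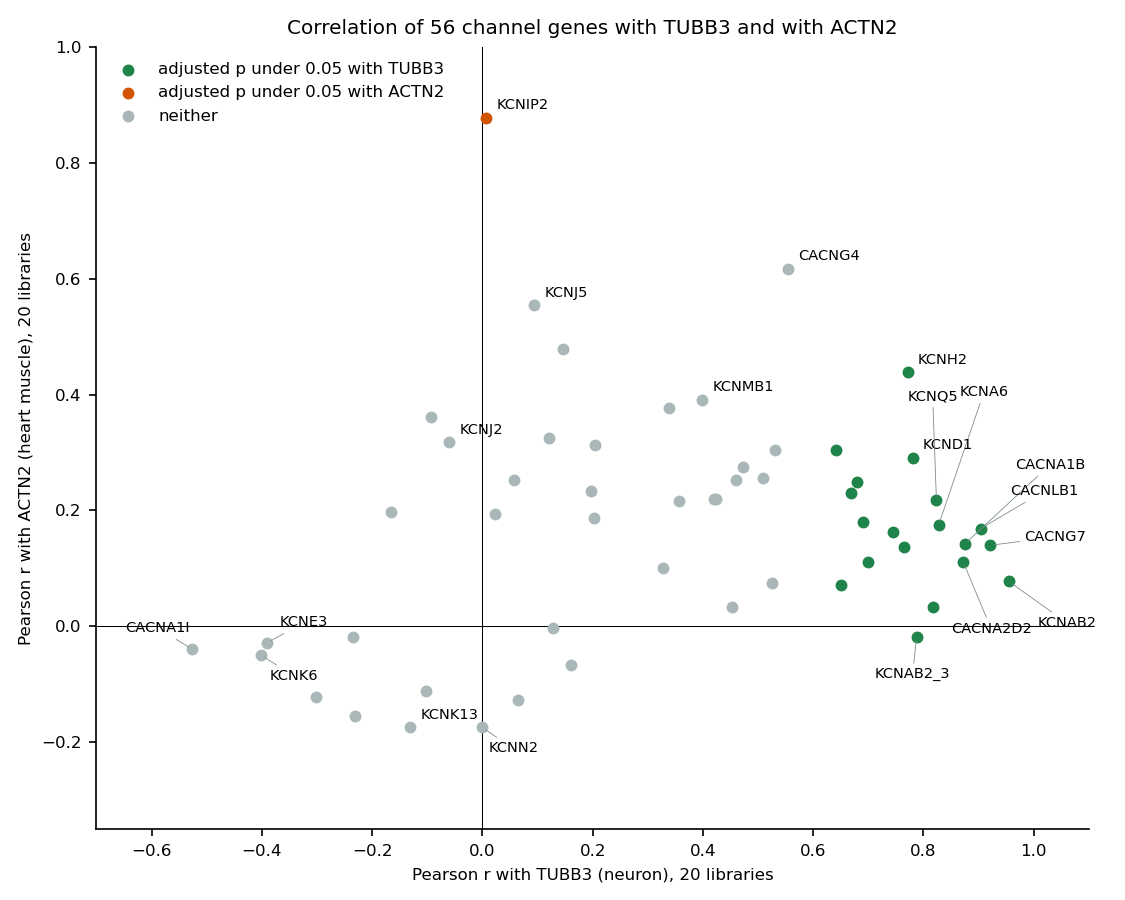
Pearson r of log2 CPM with TUBB3 (horizontal axis) and with ACTN2 (vertical axis) over 20 libraries, 1 point for each of the 56 tested channel rows, with colours for an adjusted permutation p under 0.05. The 19 green points that tracked TUBB3 lie at r between 0.641 and 0.955, and KCNIP2 stands alone near the top with r = 0.878 to ACTN2.

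A gene was said to track a marker when Pearson r of log2 CPM over the 20 libraries was above 0 with a permutation p under 0.05 after Benjamini-Hochberg adjustment over all genes tested. By that rule 14 of the 44 first-table channel genes tracked TUBB3 (31.8%), where 5.73% of all 11365 genes did, and 5 of the 12 second-table channel genes did, where 5.52% of all genes did. The 19 ranged in r from 0.641 to 0.955 and in rho from 0.592 to 0.970, with permutation p from 1e-05, the smallest the permutations can give, to 0.00249 for r and to 0.00741 for rho. All 19 had r above 0 within both pools, from 0.597 to 0.939 in pool 1 and from 0.411 to 0.964 in pool 2, where 8 libraries leave little room for a call. Adjusted p stayed under 0.05 by rho for 16 of the 19, without the 2 libraries farthest from the median TUBB3 level (HHD replicates 1 and 4) for 17, and with the group means removed for 10 (8 of 44 and 2 of 12, where 3.25% and 2.63% of all genes were called). Without HHD replicates 3 and 5, 12 of 44 and 4 of 12 tracked TUBB3, where 5.41% and 5.09% of all genes did. No channel gene was called with a negative r. In tissue of many cell types, fewer cells of a type and less RNA per cell cannot be told apart.

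Among the pores that tracked TUBB3, CACNA1B, the N-type calcium channel that triggers transmitter release from autonomic nerve endings, stood at 14.2 to 40.3 CPM (median 34.1) in WD+S, 15.01 to 25.9 CPM (median 23.6) in HHD+S and 12.1 to 24.7 CPM (median 19.9) in HHD. All WD+S libraries but replicate 1, which was also the WD+S library lowest in TUBB3, exceeded every library of the other groups. Its level followed TUBB3 with Pearson r = 0.875 (permutation p = 1e-05, adjusted p = 0.000557) and Spearman rho = 0.866 (permutation p = 1e-05, adjusted p = 0.000548). KCNQ5, a pore of the M-current that holds neurons near rest, followed TUBB3 with r = 0.824 (rho 0.805). KCNA6, a Shaker-type delayed rectifier, and KCND1, an A-type pore, had r = 0.827 and 0.780. KCNH2, the rapid delayed rectifier of heart that neurons also use, had r = 0.771, KCNMA1, the pore of the large-conductance calcium-activated channel, 0.744, and KCNJ12, an inward rectifier, 0.765. The sodium pore SCN2A tracked TUBB3 in both of its tested rows, SCN2A_1 of the first table at r = 0.690 and SCN2A of the second at 0.669. Of the neuronal pores that were tested, CACNA1A, the P/Q-type channel, did not, with r = 0.128, nor did SCN9A, the sodium pore of sensory and sympathetic neurons, with r = 0.423 (adjusted p = 0.385).

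Accessory subunits held the closest relations. KCNAB2 stood at 32.8 to 108 CPM (median 90.9) in WD+S, 27.6 to 72.8 CPM (median 43.5) in HHD+S and 23.5 to 60.5 CPM (median 47.5) in HHD, and its r of 0.955 was the highest of the 56. It came with a permutation p of 1e-05, the smallest possible (adjusted p = 0.000557), a rho of 0.970 with the same p, and r = 0.933 with group means removed. CACNG7, a gamma subunit that in the brain regulates glutamate receptors, stood at 8.13 to 25.9 CPM (median 21.96) in WD+S, 9.35 to 21.4 CPM (median 10.5) in HHD+S and 3.81 to 19.3 CPM (median 9.92) in HHD, with Pearson r = 0.921 (permutation p = 1e-05, adjusted p = 0.000453) and Spearman rho = 0.958 (permutation p = 1e-05, adjusted p = 0.000476). In HHD replicates 1 and 4, the libraries lowest in TUBB3, it stood at 5.54 and 3.81 CPM, the lowest of all libraries. CACNLB1 followed with Pearson r = 0.904 (permutation p = 1e-05, adjusted p = 0.000453) and Spearman rho = 0.910 (permutation p = 1e-05, adjusted p = 0.000476). CACNA2D2 and CACNA2D3, alpha2delta subunits that carry calcium pores to the membrane, had r = 0.872 and 0.699, and the beta subunits CACNB2 and CACNB3 had r = 0.680 and 0.641. With CACNLB1, all 3 tested rows named as calcium channel beta subunits thus tracked TUBB3, though the reference list pairs the CACNB3 row with DDX23. The relations of CACNB2, CACNB3 and SCN2B (r = 0.651) did not reach the threshold by rho (adjusted p = 0.102, 0.0604 and 0.0599). At the other end, the T-type pore CACNA1I had r = -0.527, the background potassium channel KCNK6 -0.401 and KCNE3, an accessory subunit best known from epithelia, -0.391, with adjusted p of 0.184, 0.427 and 0.421.

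**Figure D2:**
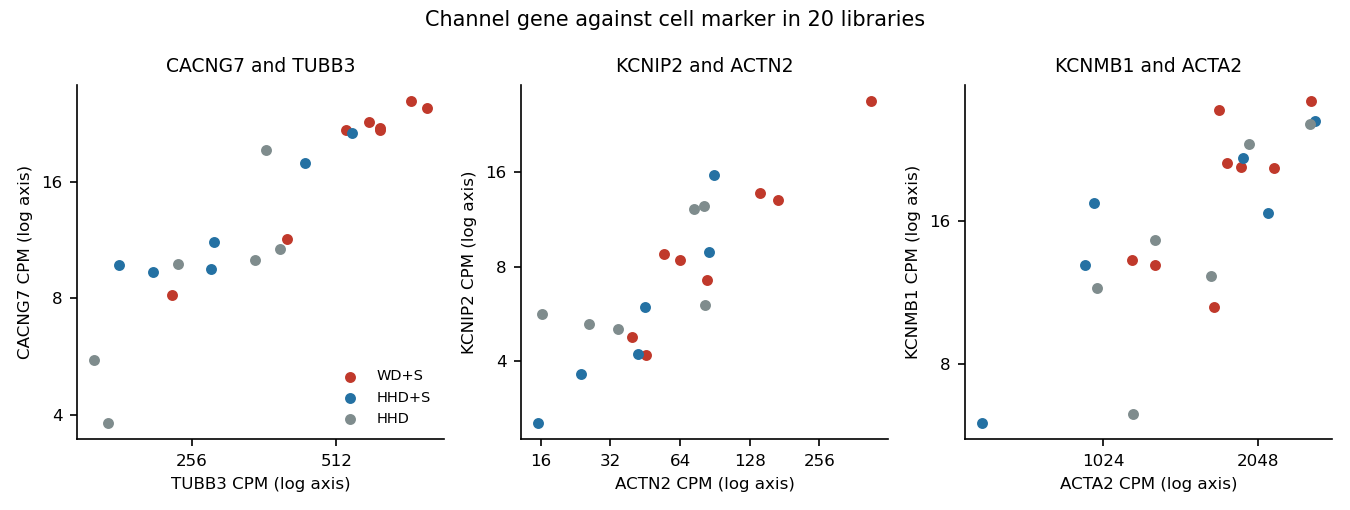
Level of a channel gene (vertical log axis, CPM) against that of a cell marker (horizontal log axis, CPM) for 3 pairs from the first table, 1 point per library (n = 20) coloured by diet group. In the first panel the WD+S libraries but for replicates 1 and 3 lie at the upper right, and in the second WD+S replicate 5 lies apart with ACTN2 at 429.6 CPM and KCNIP2 at 27.1 CPM.

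Far fewer channel genes followed the muscle marker. KCNIP2, which binds A-type pores and is needed for the transient outward current of ventricular myocytes, was the 1 of 44 first-table genes that tracked ACTN2 (2.27%, against 0.440% of all genes), and 0 of 12 second-table genes did (0.389% of all genes, with ACTN2 read from the first table). KCNIP2 stood at 4.17 to 27.1 CPM (median 8.59) in WD+S, 2.54 to 15.6 CPM (median 5.09) in HHD+S and 5.07 to 12.5 CPM (median 5.85) in HHD. WD+S replicate 5 held the highest level, the next was HHD+S replicate 5 with 15.6 CPM, and the groups overlapped throughout. It followed ACTN2 with Pearson r = 0.878 (permutation p = 1e-05, adjusted p = 0.00344) and Spearman rho = 0.875 (permutation p = 1e-05, adjusted p = 0.00406), 1e-05 being the smallest p possible, and with r = 0.882 when group means were removed (still 1 of 44 called, and 0 of 12, where 0.361% and 0.299% of all genes were), r = 0.811 in pool 1 and 0.934 in pool 2. Without the 2 libraries farthest from the median ACTN2 level, WD+S replicate 5 and HHD+S replicate 1, r was 0.779 and the adjusted p 0.0623, so the call rests on those libraries. Its r with TUBB3 was 0.00744.

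Other genes of the cardiac action potential had lower r with ACTN2 over the 20 libraries, and none of the other tested names was called. CACNG4, a gamma subunit, had r = 0.618 (permutation p = 0.00383, adjusted p = 0.551) and KCNJ5, a pore of the acetylcholine-gated current of the atrium, r = 0.554 (permutation p = 0.0109, adjusted p = 0.999). Without the 2 farthest libraries they had r = 0.342 and 0.328. KCNJ5 was called (r = 0.818, adjusted p = 0.0139) when the 3 libraries of code C4 were left out, where 0.431% of all genes tracked ACTN2. KCNH2 had r = 0.439, and KCNMB1, KCNA5, KCNJ8, KCNQ1 and KCNJ2 lay between 0.318 and 0.391. KCNQ1 is the pore of the slow delayed rectifier and KCNJ2 that of the inward rectifier of ventricular muscle. KCNJ4, which was too low to be tested in the first table, was called in the second table's counts, where it followed ACTN2 with Pearson r = 0.889 (permutation p = 1e-05, adjusted p = 0.00393) and Spearman rho = 0.833 (permutation p = 1e-05, adjusted p = 0.00477), 1e-05 being the smallest p possible. KCNJ4 stood at 0.219 to 12.3 CPM (median 2.28) in WD+S, 0.00 to 4.01 CPM (median 0.867) in HHD+S and 0.251 to 2.25 CPM (median 0.992) in HHD there, highest again in WD+S replicate 5. TUBB3 and ACTN2 were not detectably related to each other (r = 0.08, permutation p = 0.724, Spearman rho = -0.026, permutation p = 0.918; r = -0.05 in pool 1 and 0.13 in pool 2). The lowest r with ACTN2 of those described belonged to KCNK13, a background potassium channel, at -0.174, and to KCNN2, a small-conductance calcium-activated pore, at -0.175, and neither was called.

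**Figure D3:**
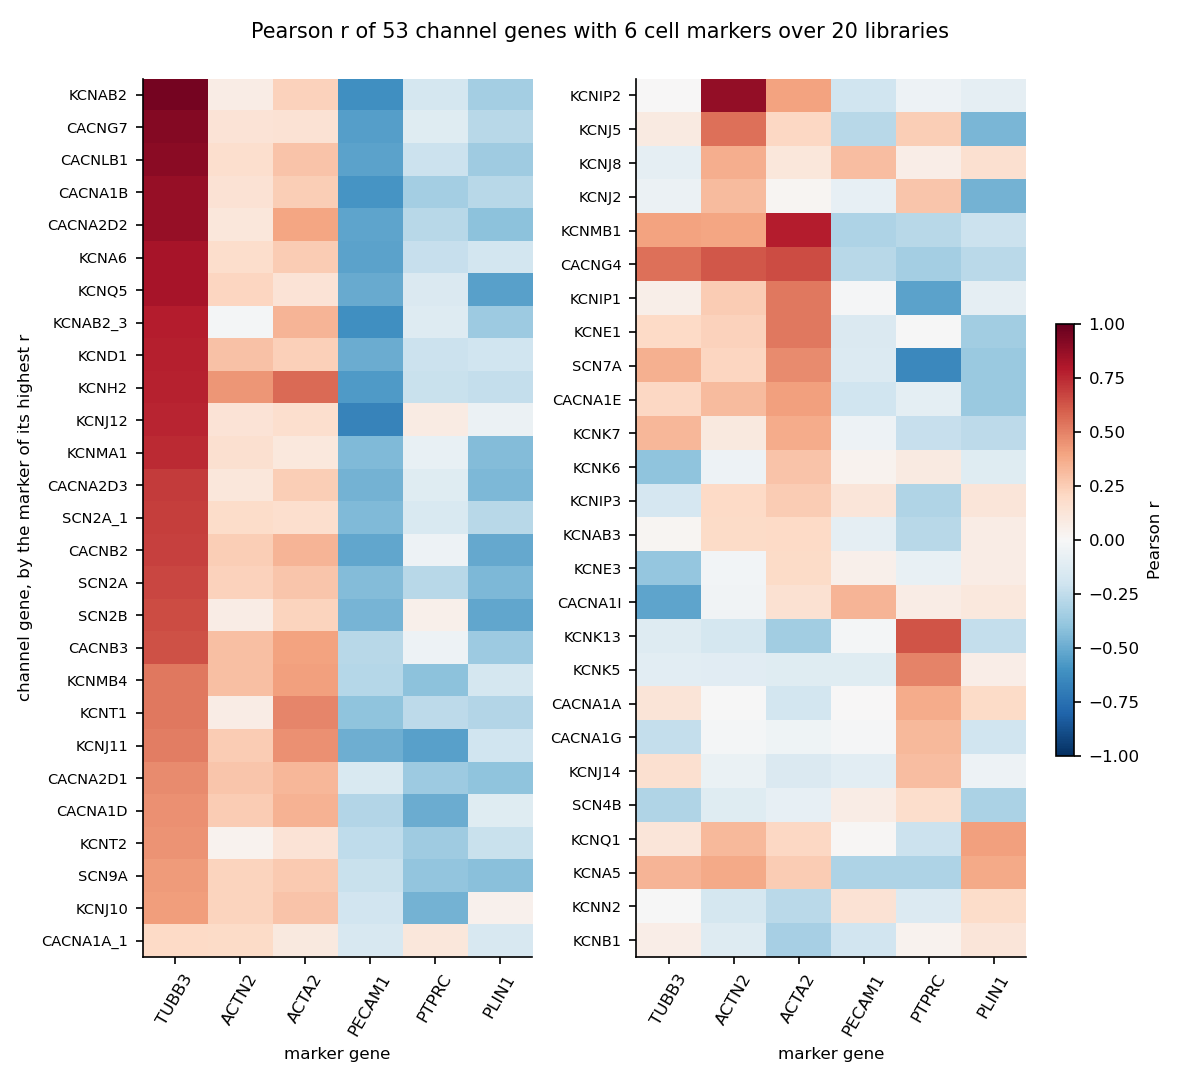
Pearson r of log2 CPM (colour, -1 to 1) of 53 of the 56 tested channel rows (ordered by the marker of their highest r) with 6 cell marker genes (columns) over 20 libraries. The 53 are rows, not distinct gene names. The block of rows highest with TUBB3 fills the left panel, with 27 of the 53, and has r below 0 with PECAM1 throughout.

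The channel genes were also read against markers of 4 further cell types. Of these 6 markers, the one of highest r was TUBB3 for 28 of the 56 rows, ACTA2 (smooth muscle) for 11, PTPRC (leukocytes) for 6, ACTN2 and PLIN1 (fat cells) for 5 each and PECAM1 (endothelium) for 1. KCNMB1 was the gene that tracked ACTA2 (0.150% of all first-table genes did), with Pearson r = 0.783 (permutation p = 3e-05, adjusted p = 0.0213) and Spearman rho = 0.768 (permutation p = 0.000120, adjusted p = 0.0593). Its r was 0.846 in pool 1, 0.702 in pool 2 and 0.699 without the 2 libraries farthest from the median ACTA2 level, where the adjusted p was 0.0852. It stood at 10.5 to 28.7 CPM (median 20.7) in WD+S, 6.03 to 26.04 CPM (median 17.1) in HHD+S and 6.30 to 25.6 CPM (median 13.4) in HHD, and the groups overlapped throughout. In the second table's counts it had r = 0.893 and rho = 0.878, both called. No channel gene tracked PECAM1 (0% of all genes did in either table), PTPRC (2.69% and 5.36% of all genes of the first and the second table) or PLIN1 (1.97% and 3.73%). In the second table's counts a negative r was called for CACNA1D, an L-type pore, with PTPRC (r = -0.620, adjusted permutation p = 0.0411) and for SCN8A with PLIN1 (r = -0.694, adjusted permutation p = 0.0322).

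**Figure D4:**
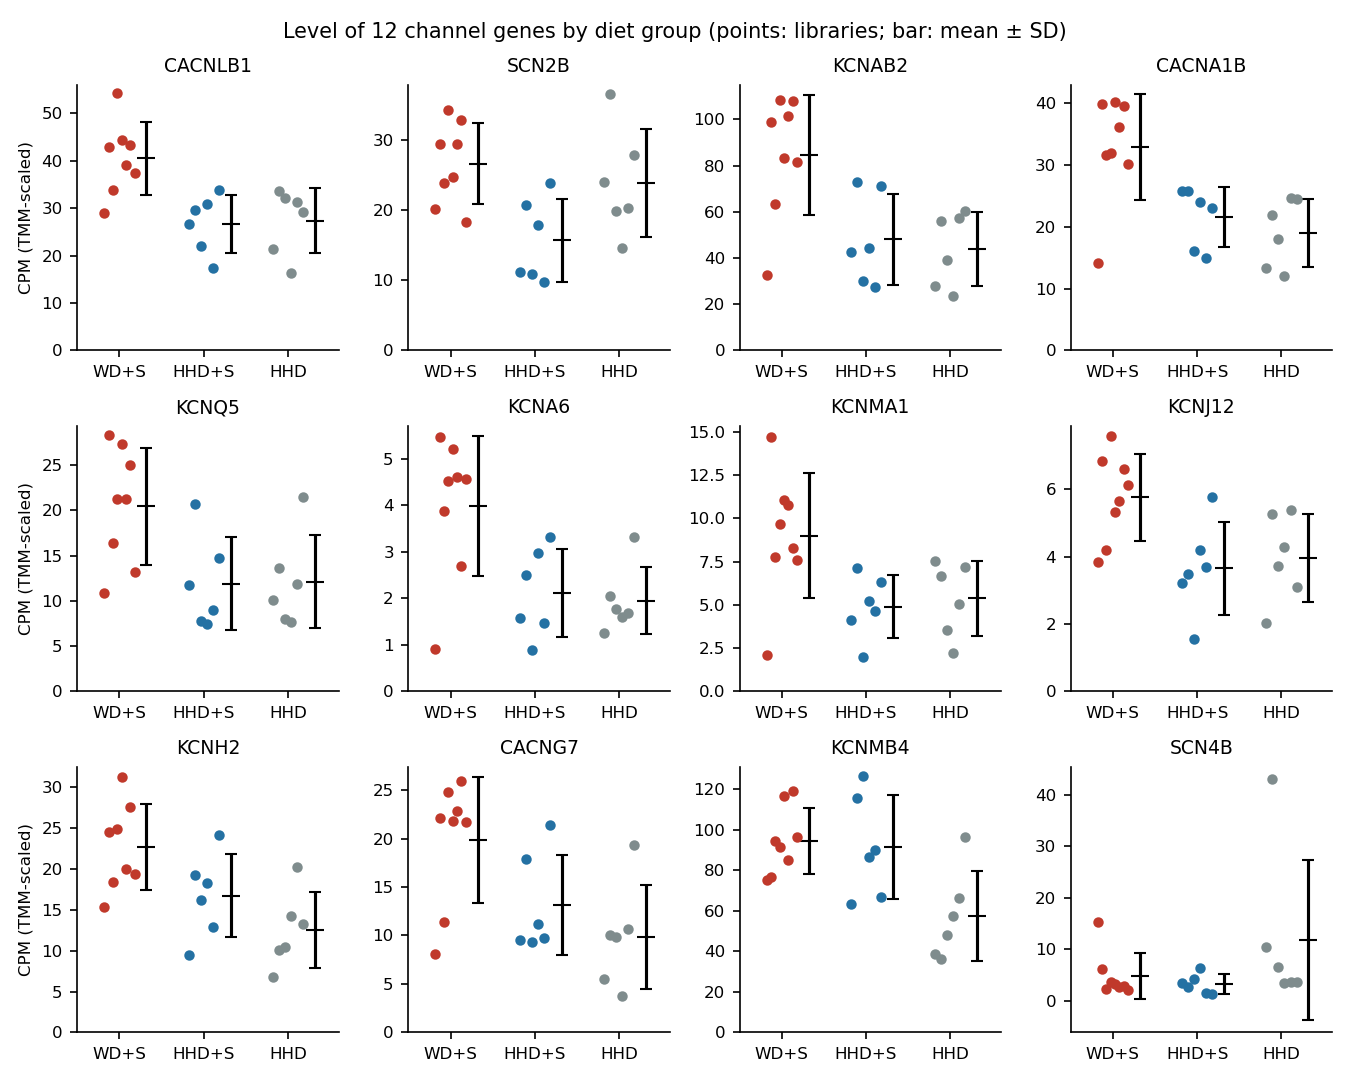
TMM-scaled CPM (vertical axes from 0 but for SCN4B) of 12 channel genes in each library, by diet group, with mean ± SD beside the points (WD+S n = 8, HHD+S n = 6, HHD n = 6). For CACNLB1, CACNA1B and KCNAB2 most WD+S points lie above the other groups, and for SCN4B the HHD mean rests on a single library at 43.2 CPM.

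Between WD+S and HHD+S the channel genes leaned toward higher levels in WD+S, but edgeR called 0 of 44 and 0 of 12 after adjustment, as it called 0% of all genes in either table. A positive fold change was found for 39 of 44 first-table genes (48.2% of all genes), with a median log2 fold change of 0.44 against -0.008 over all genes. At an unadjusted p under 0.05 there were 12 of 44 (27.3%), all higher in WD+S, where 8.69% of all genes were past that p and 5.90% were past it and higher. Among the second-table names 10 of 12 were positive (48.3% of all genes there), and 5 of 12 were past that p, all higher (8.18% of all genes, 5.73% past it and higher). DESeq2 and limma-voom with quality weights also called 0 of these. Within pool 1 the first-table count was 5 of 43 (6.08% of all genes) and within pool 2 it was 11 of 46 (15% of all genes), with 10 higher. With the file-name code as a term it was 8 of 44, all higher (7.80% of all genes), and without the 3 libraries of code C4 it was 10 of 45 (6.82% of all genes), 9 of them higher. For names that stand in both tables, 15 could be tested in the second, and 6 of the 15 had an unadjusted p under 0.05, 5 of them higher in WD+S.

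CACNLB1 had the smallest p. It stood at 28.9 to 54.2 CPM (median 40.97) in WD+S, 17.3 to 33.8 CPM (median 28.1) in HHD+S and 16.4 to 33.7 CPM (median 30.3) in HHD, and its log2 fold change was 0.60 (SE 0.17, edgeR adjusted p = 0.357). In 7 of 8 WD+S libraries it was above every HHD+S library. SCN2B stood at 18.2 to 34.2 CPM (median 27.1) in WD+S, 9.77 to 23.8 CPM (median 14.5) in HHD+S and 14.6 to 36.5 CPM (median 22.1) in HHD, with 0.77 (SE 0.22, edgeR adjusted p = 0.357) for WD+S against HHD+S, and 3 of 6 HHD libraries also lay above every HHD+S library. The log2 fold change was 0.82 (SE 0.28) for KCNAB2 and 0.61 (SE 0.22) for CACNA1B, with edgeR adjusted p of 0.384 and 0.394. Of the 8 WD+S libraries, 6 lay above every HHD+S library for KCNAB2 and 7 for CACNA1B. KCNQ5 stood at 10.8 to 28.3 CPM (median 21.3) in WD+S, 7.44 to 20.7 CPM (median 10.4) in HHD+S and 7.62 to 21.5 CPM (median 10.95) in HHD and KCNA6 at 0.904 to 5.47 CPM (median 4.54) in WD+S, 0.890 to 3.32 CPM (median 2.04) in HHD+S and 1.26 to 3.31 CPM (median 1.74) in HHD. Their log2 fold changes were 0.77 (SE 0.27) and 0.93 (SE 0.33), both at an edgeR adjusted p of 0.396. KCNMA1 had 0.88 (SE 0.33) with 7 of 8 WD+S libraries above every HHD+S library, CACNA1A_1 0.90 (SE 0.34) and KCNJ12 0.67 (SE 0.26). The plain-named CACNA1A row of the second table, of the same gene as CACNA1A_1, had only 0.06 (SE 0.25). WD+S replicate 1 was the lowest WD+S library for KCNAB2, CACNA1B, KCNQ5, KCNA6, KCNMA1 and CACNLB1, at 32.8 CPM of KCNAB2, 2.11 of KCNMA1 and 0.904 of KCNA6.

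By class, the WD+S excess over HHD+S at an unadjusted p under 0.05 was seen in 4 of 9 voltage-gated potassium pores and 3 of 7 calcium pores. Among these 7, CACNA1A_1 and CACNA1A are rows of 1 gene, and only CACNA1A_1 was past that p. The count was 2 of 3 for calcium channel beta names, with the uncertain CACNB3 row, and 2 of 4 for calcium- or sodium-activated potassium pores. For cytoplasmic potassium channel beta names it was 2 of 3, KCNAB2_3 and KCNAB2, which are rows of 1 gene. In the alpha2delta subunits, inward rectifiers, sodium pores and sodium beta subunits it was 1 each. It was seen in none of the tested tandem-pore, KCNE, KCNIP, gamma or large-conductance beta genes. Of all genes, 5.90% by the first table and 5.73% by the second were past that p and higher in WD+S. Classes of so few genes cannot show whether the excess differs between classes, and such a difference was not tested. The genes past that p beyond those described were KCNAB2_3, CACNA1E, KCND1, CACNA2D2, SCN2A, CACNB3 and KCNT2. KCNMB1, KCNJ8 and KCNA5, the abundant genes of vascular and muscle channels, had log2 fold changes of 0.21 (SE 0.31), 0.04 (SE 0.19) and -0.05 (SE 0.16).

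WD+S against HHD gave a similar lean, and since both comparisons use the same WD+S libraries they are not independent. EdgeR again called 0 of 44 and 0 of 12 (0% of all genes), and at an unadjusted p under 0.05 there were 11 of 44 (11.4% of all genes, 7.56% past it and higher), 10 higher and 1 lower, and 7 of 12 (11.1% of all genes, 7.42% past it and higher), 6 higher and 1 lower. Fold changes were positive for 36 of 44 (46.2% of all genes) and 8 of 12 (46.0%). The median over the 44 was 0.34, against -0.02 over all genes. KCNH2 had the smallest p. It stood at 15.4 to 31.3 CPM (median 22.3) in WD+S, 9.52 to 24.1 CPM (median 17.2) in HHD+S and 6.80 to 20.3 CPM (median 11.9) in HHD, and its log2 fold change was 0.86 (SE 0.22, edgeR adjusted p = 0.216). Of the 6 HHD libraries, 5 were below every WD+S library, and DESeq2 called the gene (adjusted p = 0.0358). DESeq2 also called CACNA1B and KCNMB4 in this comparison (DESeq2 adjusted p = 0.0433 and 0.0461), where edgeR gave 0.80 (SE 0.22, edgeR adjusted p = 0.174) and 0.72 (SE 0.20, edgeR adjusted p = 0.174). The share of all genes that DESeq2 called in this comparison is not given here. KCNAB2 had 0.95 (SE 0.28), CACNG7 1.03 (SE 0.31), KCNA6 1.03 (SE 0.33), KCNQ5 0.77 (SE 0.27), CACNLB1 0.57 (SE 0.17) and CACNG4 0.53 (SE 0.19), with edgeR adjusted p between 0.174 and 0.269. The lower ones were SCN4B, at -1.32 (SE 0.57) but -0.23 (SE 0.47) without HHD replicate 2, and KCNE3, at -0.59 (SE 0.23). Within pool 1 the first-table count was 12 of 43, all higher (8.31% of all genes), and within pool 2 it was 1 of 46 (4.99% of all genes). Without HHD replicates 3 and 5 there were 9 first-table genes higher and 1 lower (12.3% of all genes were past that p). Of the second-table names 5 were then higher and 1 lower (13.4% of all genes).

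HHD+S against HHD showed no common direction. The median log2 fold change was -0.05 over the 44 genes, against -0.01 over all genes, with 20 of 44 positive (48.1% of all genes) and 6 of 12 (46.7%). EdgeR called 0 of 44 and 0 of 12 (0% of all genes). An unadjusted p under 0.05 was found for 2 of 44, both lower (8.45% of all genes, 4.72% past it and higher), and for 2 of 12, 1 higher and 1 lower (8.72% of all genes, 5.12% past it and higher). DESeq2 and limma-voom called 0 as well. Without HHD replicates 3 and 5 the counts were 5 of 45 and 1 of 12 (10.8% and 13.0% of all genes). Without the 3 libraries of code C4 they were 0 and 1 (3.39% and 3.77% of all genes), and with the code as a term 4 and 4 (8.18% and 9.56%). KCNMB4 stood at 75.3 to 119 CPM (median 93.1) in WD+S, 63.5 to 127 CPM (median 88.3) in HHD+S and 36.4 to 96.5 CPM (median 52.7) in HHD, with 0.68 (SE 0.21, edgeR adjusted p = 0.363). Here 4 of 6 HHD libraries were below every HHD+S library, and the log2 fold change was 1.11 (SE 0.21) within pool 1 and -0.03 (SE 0.24) within pool 2. SCN4B, a sodium channel beta subunit, stood at 1.95 to 15.4 CPM (median 3.06) in WD+S, 1.21 to 6.32 CPM (median 3.09) in HHD+S and 3.41 to 43.2 CPM (median 5.06) in HHD, with -1.88 (SE 0.65, edgeR adjusted p = 0.446). HHD replicate 2 alone held 43.2 CPM, and without it the value was -0.79 (SE 0.52, edgeR adjusted p = 0.749). SCN2B had -0.60 (SE 0.24, edgeR adjusted p = 0.520) and KCNE3 -0.57 (SE 0.25, edgeR adjusted p = 0.494). KCNE3 was measured at 4.62 to 11.7 CPM (median 9.69) in WD+S, 4.33 to 13.02 CPM (median 8.79) in HHD+S and 11.1 to 17.1 CPM (median 12.6) in HHD, and in 4 of the 6 HHD+S libraries it was lower than in any HHD library. The 6 next smallest p belonged to CACNA1A_1, KCNK13, KCNJ5, KCNH2, KCNJ10 and KCNA5, with log2 fold changes of -0.72 (SE 0.37), -0.66 (SE 0.37), -1.26 (SE 0.75), 0.42 (SE 0.24), 0.39 (SE 0.24) and 0.28 (SE 0.18). The plain-named CACNA1A row had -0.20 (SE 0.26). The value for KCNJ5 was -0.70 without HHD replicate 2.

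Over all 3 groups at once edgeR called 0 of 44 and 0 of 12 (0% of all genes). At an unadjusted p under 0.05 there were 13 of 44 (11.4% of all genes) and 6 of 12 (11.5% of all genes). DESeq2 called CACNLB1 and KCNH2 of the first table (DESeq2 adjusted p = 0.0424 and 0.0497), where it called 136 of all 11366 genes. It also called CACNA1B of the second table (DESeq2 adjusted p = 0.0470), where the share of all genes called is not given here. The pools gave different counts for HHD+S against HHD. Within pool 1 (4 against 4 libraries) 10 of the first-table channel genes had an unadjusted p under 0.05 (7.25% of all genes did), 6 higher and 4 lower in HHD+S, and within pool 2 (2 against 2) there were 4, all lower (14.2% of all genes). SCN7A, singled out after its values were seen, was higher in HHD+S within pool 1, at 0.88 (SE 0.31, edgeR adjusted p = 0.526), and lower within pool 2, at -1.35 (SE 0.49, edgeR adjusted p = 0.270). SCN7A, a sodium-sensing channel of glia, stood at 30.7 to 89.8 CPM (median 59.2) in WD+S, 19.01 to 98.3 CPM (median 44.2) in HHD+S and 25.6 to 98.2 CPM (median 40.8) in HHD, with no group apart from the others. The 5 Schwann cell markers found, of 10 listed, summed to 1183 to 3055 CPM over all HHD+S libraries. Over all HHD libraries they summed to 1051 to 2574 CPM. Of the 5, 2 were higher in HHD+S at an unadjusted p under 0.05, where 4.72% of all genes were. All 10 tested fibroblast and mesothelial markers had a negative fold change in this comparison, 4 of them at an unadjusted p under 0.05, with a median log2 fold change of -0.89, and the 11 found summed to 6696 to 18234 CPM in HHD+S and 18168 to 25145 CPM in HHD, with CALB2 at a median of 0. Of all first-table genes, 48.1% had a positive fold change in HHD+S against HHD, 8.45% were past that p and 4.72% past it and higher. The part of fibroblast, mesothelial and Schwann cell content in the differences of channel genes was not tested.

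Neuron markers leaned the same way as the channel genes. Of the 17 channel rows of both tables at an unadjusted p under 0.05 for WD+S against HHD+S, which stand for 16 gene names, 14 tracked TUBB3 (13 gene names), which is 82.4% of the 17 and 73.7% of the 19 rows, of 17 gene names, that tracked it. For WD+S against HHD it was 11 of 18 (61.1%, and 57.9% of the 19). These counts come from the same libraries as the relation to TUBB3, whose own level leaned toward WD+S, so the overlap is in part built into the rule for tracking. How many of all genes past that p tracked TUBB3 is not given here, so the overlap cannot be read as particular to channel genes. TUBB3 itself averaged 569.8 ± 180.1 CPM in WD+S (SD, n = 8), 325 ± 142 in HHD+S and 278 ± 102 in HHD (SD, n = 6 each). All 14 listed neuron markers that were tested had a positive fold change in both comparisons, 13 of them at an unadjusted p under 0.05 in each (5.90% and 7.56% of all genes were past it and higher). Their summed level ran from 1899 to 5955 CPM in WD+S, from 1388 to 4253 in HHD+S and from 1365 to 3959.9 in HHD, and no neuron marker had a median of 0. The 18 cardiomyocyte markers found ran from 386 to 6749.8 CPM, 60.9 to 1687 CPM and 134 to 1278 CPM, with TTN and NPPB at a median of 0. Of the 15 that could be tested all had a positive fold change in both comparisons, 7 at an unadjusted p under 0.05 in each, and the part of myocardium in the differences of channel genes was not tested apart from that of nerve.

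Markers of fat, endothelium and leukocytes leaned toward lower levels in WD+S. Against HHD+S a negative fold change was found for 6 of 7 fat cell markers, 8 of 9 endothelial markers and all 7 leukocyte markers tested. In each list 2 of these had an unadjusted p under 0.05. Against HHD it was found for 7 of 7, 7 of 9 and 5 of 7, with 3, 1 and 1 past that p. Of all first-table genes, 48.2% had a positive fold change against HHD+S, 8.69% were past that p and 5.90% past it and higher. Against HHD these shares were 46.2%, 11.4% and 7.56%. The 9 endothelial markers summed to 1748 to 2339.9 CPM in WD+S, 2285 to 2583 in HHD+S and 1708 to 2911 in HHD. The 7 fat cell markers summed to 1579 to 3889, 2072 to 3539.7 and 1694 to 4559 CPM, with none at a median of 0, and the 9 leukocyte markers found to 105 to 333, 133 to 481 and 136 to 542 CPM, with CD163 at a median of 0. PECAM1 itself fell as TUBB3 rose over the 20 libraries, with Pearson r = -0.658 (permutation p = 0.00170, adjusted p = 0.0178) and Spearman rho = -0.711 (permutation p = 0.000820, adjusted p = 0.0172). These p-values were adjusted over the pairs of cell markers only, not over all genes. The r was -0.485 in pool 1, -0.792 in pool 2 and -0.801 without the 2 libraries farthest from the median PECAM1 level. The part of these cell types in the differences of channel genes was not tested.

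With log2 CPM of TUBB3 and of ACTN2 as terms beside the diet group, the lean of the channel genes was smaller. The median log2 fold change of the 44 genes was 0.03 for WD+S against HHD+S and -0.02 for WD+S against HHD, and 2 of 44 genes in each had an unadjusted p under 0.05 (2.73% and 1.13% of all genes did). KCNAB2 had 0.01 (SE 0.12) for WD+S against HHD+S, CACNA1B 0.02 (SE 0.21) and CACNLB1 0.17 (SE 0.16). CACNA1A_1 had 1.01 (SE 0.50). The genes past that p were KCNK6, at 1.15 (SE 0.41), and KCNAB3, a cytoplasmic beta subunit, at 0.87 (SE 0.40). For WD+S against HHD they were KCNK6, at 0.89 (SE 0.43), and CACNA2D2, at -0.68 (SE 0.26), which without the terms had 0.59 (SE 0.31). In HHD+S against HHD, SCN2B had -0.75 (SE 0.19, edgeR adjusted p = 0.547), a larger difference than without the terms. TUBB3 itself was higher in most WD+S libraries, so such a fit removes part of any diet effect that the marker shares, and effects of diet on nerve content and on channel levels cannot be told apart.

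**Figure D5:**
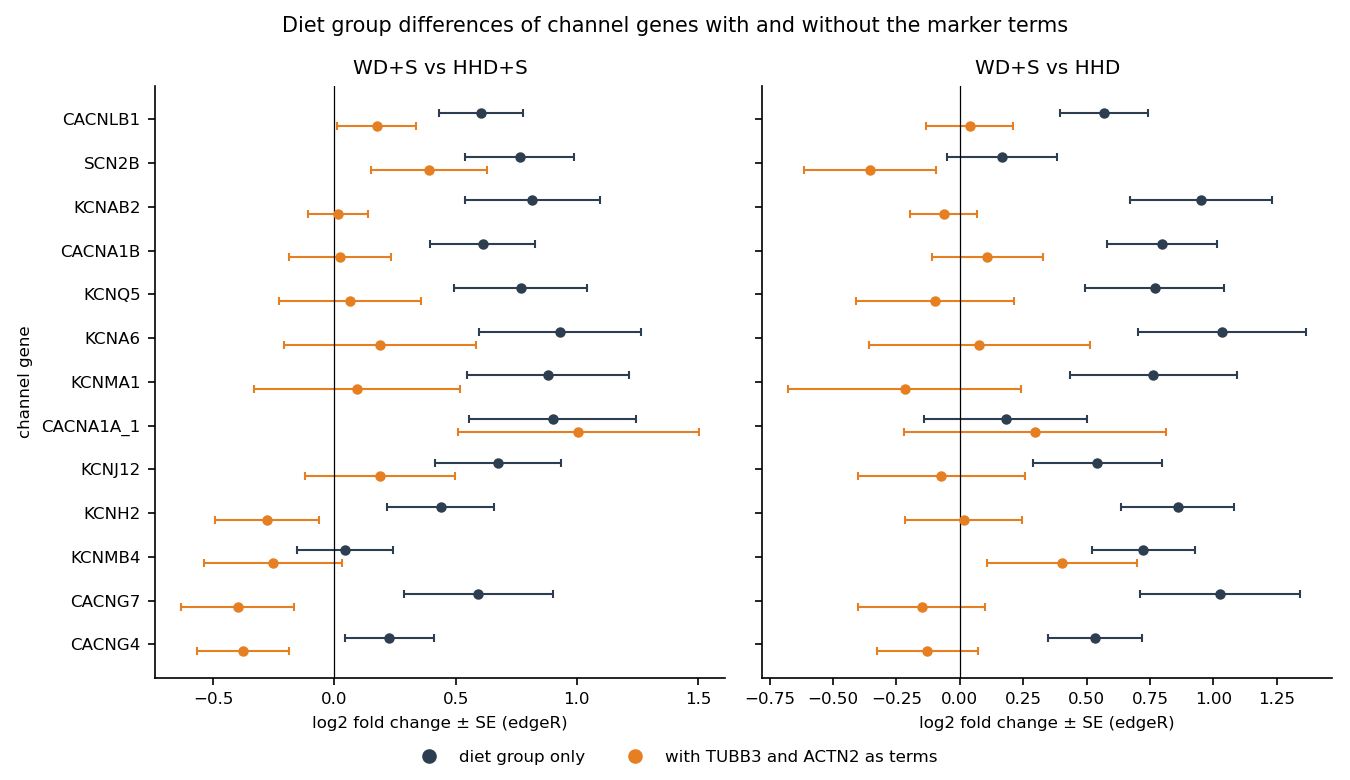
EdgeR log2 fold change ± SE (horizontal axes) of 13 channel genes (rows) for WD+S against HHD+S (left) and WD+S against HHD (right), from the fit of diet group alone and from the fit with TUBB3 and ACTN2 as terms. With the terms KCNAB2 and CACNA1B lie at 0.01 and 0.02 in the left panel, and CACNA1A_1 has the highest value there, at 1.01.

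Other genes that work with these channels were read from a list of 43 partners, of which 24 could be tested. EdgeR called 0 in each comparison. At an unadjusted p under 0.05, 10 were higher in WD+S than in HHD+S (5.90% of all genes were) and 10 higher in WD+S than in HHD (7.56%), with 1 higher in HHD+S than in HHD (4.72%) and 0 lower in any of the 3. The median log2 fold changes were 0.39, 0.51 and -0.08. The smallest p for WD+S against HHD+S belonged to FGF13, which binds sodium pores in neurons, at 0.85 (SE 0.27, edgeR adjusted p = 0.362), STAC, an adaptor of L-type channels, at 0.91 (SE 0.29, edgeR adjusted p = 0.362), and DPP10, a subunit of A-type channels, at 1.21 (SE 0.42, edgeR adjusted p = 0.380). For WD+S against HHD, those with the smallest p included DPP6, the sister of DPP10, at 1.08 (SE 0.32, edgeR adjusted p = 0.216), and ABCC8, the sulfonylurea receptor that pairs with KCNJ11, at 0.60 (SE 0.19, edgeR adjusted p = 0.216). ABCC8, FGF12 and ANK3, the ankyrin that anchors sodium channels at the axon's initial segment, had the smallest p for HHD+S against HHD, at 0.48 (SE 0.20, edgeR adjusted p = 0.539), 0.49 (SE 0.26, edgeR adjusted p = 0.640) and 0.40 (SE 0.23, edgeR adjusted p = 0.662).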

How the data were processed

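Epicardial fat of Ossabaw pigs was sequenced in 20 libraries, from RNA with a quality indicator above 7 and a kit that does not mark strand, per the labels' protocols, so overlapping and antisense genes cannot be told apart. The authors deposited counts of unique reads per gene in both tables of each library, and an RPKM per gene, scaled by length and depth, in the second. The submitters' processing notes name bcl2fastq 2.17.1.14 and the build Sscrofa10.2. Aligner, counting tool and the second table's gene set: not given in the sources used here. Copy-numbered names may split the reads of 1 gene.

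The counts per library totalled 2749337 to 6543337 in the first table and 2751997 to 6192662 in the second, which limits the precision for genes of a few CPM. Genes were kept by the filterByExpr rule (minimum count 10, minimum total 15), which left 11366 and 6685 genes. Each table was scaled by TMM and fitted once over the 20 libraries with edgeR 4.0.16 (quasi-likelihood F test, R 4.3.3), and p-values were adjusted by Benjamini-Hochberg over all genes. Alternatives were DESeq2 1.42.0, limma 3.58.1 (voom with quality weights), RLE size factors, no filter, only the groups compared, the pool as a term, each pool alone, the file-name code as a term or C4 left out, the second table, TUBB3 and ACTN2 as terms, and libraries left out. Correlations used log2 CPM (prior count 2) with 100000 two-sided permutations (exact for the 8 libraries of pool 2), with Python 3.11.15, numpy 2.4.6, scipy 1.17.1 and pandas 2.3.3. ACTN2 of the first table served for the names of both tables, and ACTA2 stood in for a smooth muscle marker not in the first table. Scripts were tested on simulated data.

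Libraries were grouped by their diet labels. The genes named are the 10 with the smallest p per comparison, for TUBB3 and ACTN2 the 10 with the highest r and the 3 with the lowest, the 10 highest in RPKM, all genes called, and the 3 partners with the smallest p; genes named beyond these, such as those at an unadjusted p under 0.05, were chosen after their values were seen. Some genes that these rules name, and a further cell marker, are not reported here. The members, marker lists and partner list were chosen with earlier results of these data known.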

Additional observations from a re-analysis of the deposited data

Results flagged for a closer look

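In the level of 1 library against the others of its group, 9 values among 96 groups of libraries lay apart by a gap test at the 95% level, where chance flags about 1 in 20 groups. WD+S replicate 5, the library richest in ACTN2, was high in 3 channel genes. It held KCNIP2 at 27.1 CPM, where the other WD+S libraries held 4.17 to 13.7 CPM, KCNJ5 at 19.6 CPM (others 1.52 to 9.81) and CACNG4 at 31.6 CPM (others 14.8 to 22.6). WD+S replicate 1, the WD+S library lowest in TUBB3, held CACNA1B at 14.2 CPM, below the 30.2 to 40.3 CPM of the others, and SCN4B at 15.4 CPM, above their 1.95 to 6.23 CPM.

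HHD replicate 2 held SCN4B at 43.2 CPM, where the other HHD libraries held 3.41 to 10.3 CPM, and KCNJ2 at 17.3 CPM (others 6.34 to 9.84). In HHD+S, replicate 3 held KCND1 at 2.00 CPM (others 3.35 to 3.81) and replicate 1 held KCNJ2 at 6.12 CPM (others 8.04 to 8.86).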

How the results depend on the processing

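No paired analysis was possible because the labels give no replicate numbers shared between groups. The counts at an unadjusted p under 0.05, every alternative run on the names only in the second table, and the use of the file-name code, were chosen after seeing the data, and the cause of each move was not tested. DESeq2 called 1 first-table channel gene for WD+S against HHD and 2 over the 3 groups, and 2 and 1 of the second-table names, where edgeR called 0. Of all 11366 first-table genes DESeq2 called 136 over the 3 groups. The shares of all genes for its other calls are not given here, so those calls cannot be set against all genes. At an unadjusted p under 0.05 the 12 genes of WD+S against HHD+S became 2 with TUBB3 and ACTN2 as terms, 19 without the filter, 6 in the second table and 5 in pool 1. The 11 of WD+S against HHD became 2 with the terms, 18 without the filter, 3 in the second table and 1 in pool 2. The 2 of HHD+S against HHD became 4 with the terms, 6 without the filter, 1 in the second table, 10 in pool 1, 4 in pool 2, 5 without HHD replicates 3 and 5, 4 with the file-name code as a term and 0 without the libraries of code C4. In these 3 comparisons the second-table counts are out of the 15 tested names shared by both tables, not out of all first-table genes tested. Of the second-table names, the 5 for WD+S against HHD+S became 0 with the terms, 1 in pool 1 and 3 in pool 2, the 7 for WD+S against HHD became 0 with the terms and 1 in pool 2, and the 2 for HHD+S against HHD became 1 under limma-voom, in pool 2, without HHD replicates 3 and 5 and without code C4, and 4 with the code as a term. The 14 genes tracking TUBB3 became 8 with group means removed, 6 in pool 1 and 0 in pool 2. The 5 second-table names became 2 with group means removed, 3 in pool 1 and 0 in pool 2. By the second table's counts 1 of the 15 tested names shared with the first tracked TUBB3. Of the 14 genes only SCN2B is among those shared names, so that count does not show whether the 14 hold. The 1 tracking ACTN2 became 2 without the filter or without code C4 and 0 in either pool or without the 2 farthest libraries. The 56 expressed became 27 when only the second table was read.

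Leaving out each library in turn gave 8 to 17 genes at an unadjusted p under 0.05 for WD+S against HHD+S, 9 to 16 for WD+S against HHD and 1 to 6 for HHD+S against HHD, and 3 to 5, 4 to 8 and 1 to 3 of the second-table names. It gave 11 to 15 genes tracking TUBB3 (4 to 5 of the second-table names), 1 to 2 tracking ACTN2 and 0 called by edgeR. HHD+S against HHD moved most, to 1 without HHD replicate 2, 6 without HHD replicate 6, and 4 without HHD replicate 5 or HHD+S replicate 5. Of the second-table names, WD+S against HHD+S gave 3 without HHD+S replicate 3 or WD+S replicate 2, WD+S against HHD gave 4 without WD+S replicate 6 or 7, and HHD+S against HHD gave 1 without HHD replicate 2 or 3 or HHD+S replicate 1, 5 or 6. The ACTN2 count was 2 without HHD replicate 1 or 2.

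Signs turned in a few values. For HHD+S against HHD within pool 2 KCNMB4 had a log2 fold change of -0.0258, KCNJ10 -0.20 and KCNK13 0.50. With the marker terms KCNAB2, CACNG7, CACNG4 and KCNQ5 had -0.0643, -0.15, -0.13 and -0.10 for WD+S against HHD, where CACNA2D2 turned as well. With ACTN2, r was -0.0402 for KCNJ2 without the 2 farthest libraries, 0.228 for KCNN2 in pool 2, and for KCNK13 0.0430 in pool 1 and 0.0555 without code C4, and leaving out single libraries gave KCNK13 -0.317 to 0.0415. The second table names fewer genes, and depth limits genes such as KCNA6, read at a few CPM.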
